A study of Rattus norvegicus with 18 samples.

Results

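The 7 GIMAP genes of the rat (Gimap1, Gimap4, Gimap5, Gimap6, Gimap7, Gimap8 and Gimap9) were followed in autoreactive T cells recovered from the spinal cord and the spleen. They were chosen by gene name, with earlier results of these data known, from the 32882 genes of each of 3 expression tables. The count tables gave a name to 6 of the members, and Gimap1 was identified by its gene identifier, which the authors' comparison of Grk2 pairs with that symbol. All 7 passed a mean normalized count of at least 10 in every table and were tested.

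GIMAP proteins (GTPases of the immunity-associated protein family) are GTP-binding proteins found mainly in lymphocytes, where several of them sit on intracellular membranes through their C-terminal parts and form complexes with one another. They are best known for keeping resting lymphocytes alive. A frameshift in rat Gimap5 is the lyp mutation of the BB rat, which loses most of its peripheral T cells, and GIMAP1 is needed for mature T and B cells. GIMAP6 binds the autophagy protein GABARAPL2, and GIMAP4 has been tied to the pace of T cell death.

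The cells were CD4+ T cells of the Lewis rat specific for myelin basic protein (T_MBP cells), grown and restimulated in culture, transferred into Lewis rats and sorted on day 3 after transfer. Sequencing covered 3 sets, each pairing edited with control cells: Ets1-KO in the parenchyma of the spinal cord, Ets1-KO in the spleen and Grk2-KO in the spleen. Each of the 6 groups had 3 libraries. In the parenchyma set, the study recovered Ets1-KO and control cells from rats that had received both. Cells were edited by CRISPR, KO cells carried GFP, and control cells carried BFP and a non-targeting guide. Both kinds of cell thus went through editing and carried a fluorescent protein, and the protein differed between KO and control in every set. The labels give all control cells the genotype WT and do not state the age of the rats. Bulk libraries cannot separate fewer cells of a type from less RNA per cell.

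Reads came from the 3′ ends of transcripts. Their number ranged from 898092 to 2248258 per library, and in the spleen Ets1 set the KO libraries (1909862 to 2248258) were deeper than the controls (898092 to 1213485). Grk2 checked its label, since its 3 KO libraries held normalized counts of 53.3, 64.2 and 87.3 against 166, 166 and 142 in the controls (log2 difference -1.22, limma adjusted p = 1.76e-12). This call was kept in 13 of 15 alternatives and lost without replicate 2 and with eBayes without a trend. The mRNA of Ets1 did not differ by the test in either Ets1 set (log2 difference 0.09 in parenchyma and -0.06 in spleen). Reads from the 3′ end do not cover an edit elsewhere in a transcript, so Ets1 checks no label here. Of the CD4 T cell markers, 8 of 8 were detected in every group, with a summed level between 2597 and 3378 RPM (reads per 1000000 reads on genes). The B cell markers summed to at most 9.89 RPM and Pax5 was at 0 in every library. Myeloid markers summed to between 17.5 and 46.1 RPM in parenchyma and to at most 7.33 in spleen, and Adgre1 was at 0 everywhere. The part of such cells in the results on tissues was not tested.

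The members lie side by side on chromosome 4 of Rnor_6.0, from 78283025 to 78385577, a stretch of 103 kb that holds no other annotated gene. Along the chromosome the order is Gimap8 (ENSRNOG00000020169, 78283025 to 78294845), Gimap9 (ENSRNOG00000024569, 78310378 to 78313206), Gimap4 (ENSRNOG00000008369, 78320189 to 78327144), Gimap6 (ENSRNOG00000033338, 78336422 to 78342863), Gimap7 (ENSRNOG00000038740, 78354334 to 78358503), Gimap1 (ENSRNOG00000042229, 78371120 to 78375223) and Gimap5 (ENSRNOG00000008416, 78378143 to 78385577). Gimap6 is read from the minus strand and the other 6 from the plus strand. Within 200 kb on either side 14 other genes are annotated, and Zfp775 was the only neighbour to reach a mean normalized count of 10 in any table, with a mean of 11.3 in parenchyma. No other neighbour exceeded 6.56 normalized counts in any library, so the GIMAP genes stood as an expressed block in a stretch with few reads. Zfp775 did not pass the test (log2 difference 0.48, SE 0.40, limma adjusted p = 0.581).

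ETS1 is a transcription factor whose family binds DNA around a GGAA core, so the promoters of the members were read from RefSeq (GRCr8), where all 7 were found. The windows ran from 250 bases before to 50 bases after each annotated start, 300 bases in all, and both strands were searched. The 130 bases before the start are shown 5′ to 3′ on the strand of the gene for Gimap6, the only member called in a knockout, and for Gimap4 and Gimap9, which had an unadjusted p under 0.05 in an Ets1 set. Capitals mark AGGAAG or its reverse complement CTTCCT.
Gimap6, chr4:78990007-78990136, minus strand: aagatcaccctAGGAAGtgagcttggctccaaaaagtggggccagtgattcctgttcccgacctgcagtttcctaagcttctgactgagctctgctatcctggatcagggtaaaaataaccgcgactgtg
Gimap4, chr4:78967167-78967296, plus strand: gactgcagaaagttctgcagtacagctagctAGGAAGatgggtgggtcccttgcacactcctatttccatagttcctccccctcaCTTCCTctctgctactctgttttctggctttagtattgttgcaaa
Gimap9, chr4:78957321-78957450, plus strand: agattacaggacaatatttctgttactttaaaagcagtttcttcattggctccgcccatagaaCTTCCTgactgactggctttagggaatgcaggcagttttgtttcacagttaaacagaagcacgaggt

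In Gimap6 the AGGAAG match began 119 bases before the start. AGGAAG was found in 5 of the 7 windows and in 34.5% of all 33469 promoters, with 2 matches in Gimap4 and none in Gimap7 or Gimap8. The longer CAGGAAGT, which contains AGGAAG, was found in Gimap5 and Gimap9 and in 3.05% of all promoters. CCGGAA (15.0% of promoters) and ACCGGAAGT (1.20%), which contains it, were found in none of the members. The bare core GGAA, held by 95.8% of promoters, matched 7 times in Gimap6 and 0 times in Gimap8. These matches describe letters in a window and were not set against binding data.

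Ets1-KO cells of the parenchyma were compared with control cells to ask what the loss of Ets1 changes in T cells that have entered the spinal cord. Gimap6 was the only member that passed the test, and it was lower in Ets1-KO cells. The normalized counts of Gimap6 in control replicates 1 to 3 were 88.7, 121 and 122, from 95, 129 and 124 reads. In Ets1-KO replicates 1 to 3 they were 79.9, 65.7 and 69.1, from 79, 65 and 61 reads. All 3 KO libraries thus lay below all 3 controls, with the smallest gap in replicate 1. Within the pairs the log2 ratio was -0.15, -0.87 and -0.81, and Gimap6 fell by 34.5% on the log2(value + 1) scale.

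The fitted log2 difference of Gimap6 was -0.61 (SE 0.15, 95% CI -0.91 to -0.31, n = 3 pairs, limma adjusted p = 0.00288). Members called were thus 1 of 7, beside 5.23% of the 7002 genes tested. At an unadjusted p under 0.05 there were 2 of 7, beside 16.9% of all genes. Only Gimap6 had groups that did not overlap, beside 10.5% of all genes with all KO libraries lower, and its exact two-sided permutation p was 0.1, the smallest that 3 against 3 libraries allow. The call rests on a shared spread: limma estimated the same variance for all genes of a given level (an infinite prior), and without that trend the adjusted p was 0.325. It was also lost without replicate 2 (adjusted p = 0.211) and without replicate 3 (adjusted p = 0.109). With DESeq2 on the recovered reads and the replicate block it was 0.607, and with edgeR 0.00503, while the log2 difference stayed between -0.84 and -0.48 in the 15 alternatives.

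Gimap4, in the parenchyma, lay on the other side of 0. Its normalized counts were 247, 239 and 269 in controls and 334, 258 and 315 in Ets1-KO cells, higher in each pair but with overlapping groups. The log2 difference of 0.26 (SE 0.10, unadjusted p = 0.0124) did not pass (limma adjusted p = 0.135). Gimap8, the member with several GTP-binding domains, read 97.1, 111 and 104 in controls and 78.9, 84.9 and 97.5 in Ets1-KO cells. It was lower in each pair, the highest KO library just passed the lowest control, and the log2 difference of -0.26 (SE 0.15) did not pass (limma adjusted p = 0.375).

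The remaining members of the parenchyma set lay near 0. Gimap5 held 220, 287 and 218 normalized counts in controls and 233, 287 and 247 in Ets1-KO cells, a log2 difference of 0.09 (95% CI -0.12 to 0.30). For Gimap7, with 348, 349 and 309 against 321, 331 and 347, the log2 difference was -0.01 (95% CI -0.20 to 0.18). Gimap9 read 321, 308 and 324 against 302, 308 and 348, with a log2 difference of 0.00 (95% CI -0.19 to 0.20). Gimap1 read 99.0, 83.7 and 87.5 against 92.0, 69.8 and 114, with a log2 difference of 0.01 (95% CI -0.29 to 0.30). A change of Gimap7 or Gimap9 as large as the fitted difference of Gimap6 lay outside these intervals. Over the 7 members the median log2 difference was 0.00, beside -0.03 over all genes tested.

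**Figure D1:**
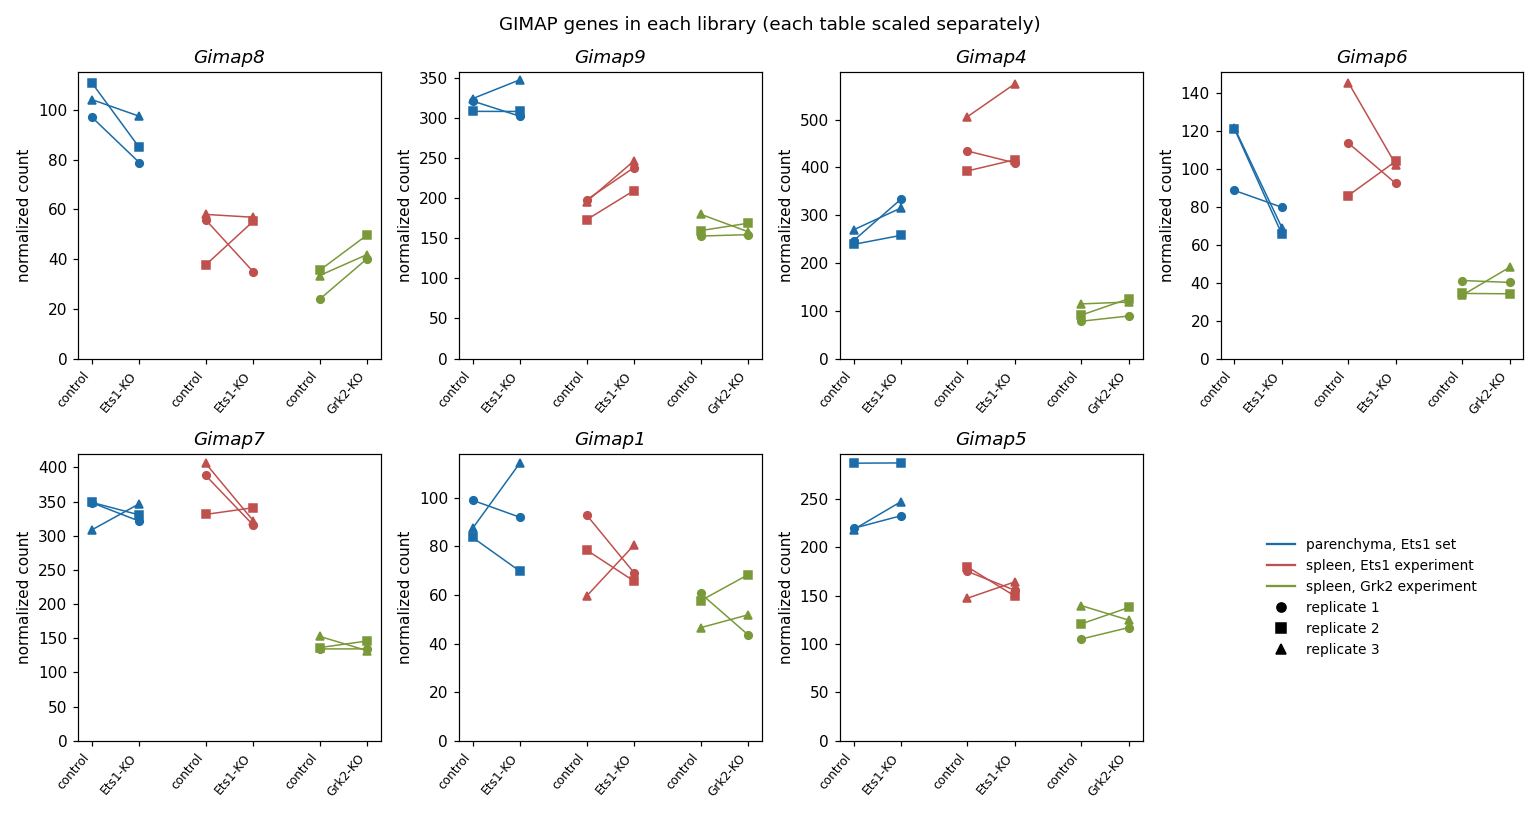
Normalized counts (y axis, linear, from 0) of each GIMAP gene in all 18 libraries, with lines joining the control and KO libraries of the same replicate number in each of the 3 sets. In parenchyma the Gimap6 lines of replicates 2 and 3 drop from 121 and 122 to 65.7 and 69.1, while replicate 1 goes from 88.7 to 79.9.

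In the spleen Ets1 set, which asks what the loss of Ets1 changes outside the CNS, none of the 7 members passed the test. Members called were 0 of 7 with limma, DESeq2 and edgeR, beside 2.22% of 6979 genes tested with limma. At an unadjusted p under 0.05 limma counted 1 member, Gimap9, beside 14.1% of all genes. The normalized counts of Gimap9 were 198, 173 and 196 in controls and 238, 210 and 247 in Ets1-KO cells. All 3 KO libraries lay above all 3 controls, as did 8.04% of all genes, and the pairs gave close log2 ratios of 0.27, 0.27 and 0.33. The fitted log2 difference was 0.29 (SE 0.12, unadjusted p = 0.0287, limma adjusted p = 0.290).

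Gimap6 in the spleen read 114, 86.1 and 146 in controls and 92.4, 104 and 102.4 in Ets1-KO cells. The KO values lay inside the range of the controls, and the pairs went both ways. Its log2 difference was -0.18 (SE 0.16, limma adjusted p = 0.692). Gimap7 read 388, 331 and 406 in controls and 316, 341 and 322 in Ets1-KO cells, with a log2 difference of -0.20 (SE 0.12, limma adjusted p = 0.485). Only replicate 2 of Gimap7 was higher in the KO library. Gimap4 read 434, 393 and 506 in controls and 409, 416 and 575 in Ets1-KO cells (log2 difference 0.06, 95% CI -0.17 to 0.29). Replicate 3 was the highest of both genotypes. Gimap1, Gimap5 and Gimap8 had log2 differences of -0.08, -0.09 and -0.05. The interval of Gimap8, from -0.52 to 0.42, was wide, with between 35 and 91 reads per library.

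GRK2 is a kinase that switches off G protein-coupled receptors, and the spleen Grk2 set asks what its loss changes in T cells outside the CNS. Again 0 of the 7 members passed with limma, DESeq2 and edgeR, beside 1.56% of 6985 genes with limma. Gimap8 came closest, and it was the only member with an unadjusted p under 0.05, beside 10.4% of all genes. Its normalized counts were 23.8, 35.5 and 33.4 in controls, from 22, 32 and 33 reads, and 40.2, 49.7 and 41.8 in Grk2-KO cells, from 46, 48 and 46 reads. The groups did not overlap, as in 7.59% of all genes with the KO higher. The log2 difference of Gimap8 was 0.51 (SE 0.22, unadjusted p = 0.0208, limma adjusted p = 0.346).

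Gimap4 was higher in the Grk2-KO library of all 3 pairs, with 78.0, 90.9 and 114 in controls and 89.1, 125 and 118 in KO cells, but the groups overlapped (log2 difference 0.23, SE 0.13, limma adjusted p = 0.550). Gimap6 held 41.2, 34.4 and 33.4 normalized counts in controls, and its log2 difference of 0.16 had an interval from -0.26 to 0.58. Gimap1, Gimap5, Gimap7 and Gimap9 had log2 differences between -0.04 and 0.06. The median over the 7 members was 0.06, beside 0.02 over all genes.

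**Figure D2:**
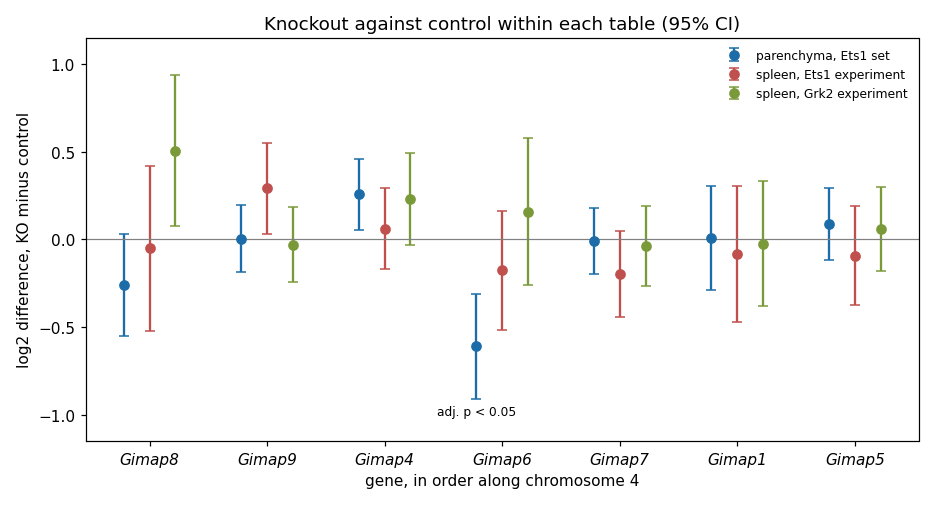
Log2 difference of KO minus control (y axis) for each GIMAP gene in order along chromosome 4, with 95% confidence intervals from limma, for the 3 sets. Gimap6 in parenchyma (-0.61) is the only value past the adjusted threshold of 0.05, and in both spleen sets the widest interval is that of Gimap8.

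The Ets1 effects in the 2 tissues were then compared directly, as were the Ets1 and Grk2 effects in spleen. For no member did the Ets1 effect differ between parenchyma and spleen with limma, 0 of 7 also at an unadjusted p under 0.05, beside 2.10% (adjusted) and 13.8% (unadjusted) of 6520 genes. For Gimap6 the difference of effects, parenchyma minus spleen, was -0.44 on the log2 scale (SE 0.24, 95% CI -0.91 to 0.04, limma adjusted p = 0.418). It was -0.73 without replicate 1 and -0.079 without replicate 2. The fall of Gimap6 was therefore not shown to be particular to the parenchyma. For Gimap9 it was -0.29 (95% CI -0.60 to 0.03, limma adjusted p = 0.417).

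Between the knockouts in spleen 0 of 7 members differed, beside 1.94% of 6490 genes, and 0 of 7 at an unadjusted p under 0.05 (12.9% of all genes). For Gimap8 the Ets1 effect minus the Grk2 effect was -0.56 on the log2 scale (SE 0.32, 95% CI -1.20 to 0.09, limma adjusted p = 0.469), and it was -0.14 without replicate 1 and -0.87 without replicate 2. For Gimap9 it was 0.32 (SE 0.16, limma adjusted p = 0.402). An effect of Gimap8 of over 2-fold in this direction is inside the interval, so the data do not show that the knockouts act alike on it.

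The summed level of the GIMAP genes was lower in the spleen Grk2 set than in both Ets1 sets. Because each table had been scaled on its own, levels were expressed in RPM and are given as a description without a test: tissue, experiment and table cannot be told apart. The 7 members together took between 984 and 1103 RPM in the 12 libraries of both Ets1 sets. In the 6 libraries of the spleen Grk2 set they took between 467 and 562. The ranges do not meet, and KO and control libraries lay together in each set. The control mean of the spleen Ets1 set was 2.13 times that of the spleen Grk2 set, although both were control cells from the spleen on day 3.

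The members did not share this difference equally. Gimap4 was at 327, 304 and 360 RPM in the spleen Ets1 controls and at 61.1, 70.2 and 86.0 in the spleen Grk2 controls, a ratio of 4.56. A ratio beyond 4-fold in this direction was found for 2.12% of the 6661 genes with a mean of at least 10 RPM. Gimap6 (85.3 ± 18.5 against 28.0 ± 3.77, SD, n = 3) had a ratio of 3.05, and Gimap7 (279 ± 19.8 against 108 ± 5.58) a ratio of 2.57. Gimap8 had a ratio of 1.58 with groups that did not overlap. Gimap1, Gimap5 and Gimap9, at ratios of 1.36, 1.34 and 1.12, had overlapping groups. Between these spleen controls 4 of 7 members were higher in all 3 libraries of the spleen Ets1 set, beside 31.7% of all genes, and 3 of 7 were over 2-fold higher in the spleen Ets1 set, beside 13.3%.

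Other values also differed between these spleen control groups. Reads on pseudogenes made up between 0.648% and 0.662% of the reads in the spleen Ets1 controls and between 0.340% and 0.357% in the spleen Grk2 controls. Klrd1, an NK cell receptor gene, was at 26.1 and 120 RPM in these groups, while Ncr1, another NK cell gene, was at 0 in every library. Their part in the result was not tested. Hba-a1, a haemoglobin gene of red cells, was at 25.2 and 0.283 RPM, and its part was not tested either. In the parenchyma controls, where the GIMAP sum was near that of the spleen Ets1 controls, Klrd1 was at 19.0 and Hba-a1 at 0.448 RPM.

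Against the parenchyma, the members fell into different patterns. Gimap5, Gimap8 and Gimap9 were higher in all 3 parenchyma controls than in all 6 spleen controls, 3 of 7 members beside 10.3% of all genes. Gimap8 stood at 73.2 ± 3.43 RPM (SD, n = 3) in parenchyma, at 37.5 ± 7.21 in the spleen Ets1 controls and at 23.7 ± 4.53 in the spleen Grk2 controls. Gimap9 stood at 224 ± 10.2, 141 ± 7.69 and 126 ± 8.30 in the same order, and Gimap5 at 170 ± 23.98, 125 ± 18.1 and 93.5 ± 11.4. These 3 genes kept this order with the authors' normalized counts, with TMM scaling over all 18 libraries, without mitochondrially encoded genes and without each replicate number in turn.

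Gimap4, Gimap6 and Gimap7 had no common direction between the tissues. Parenchyma controls held Gimap4 at 177 ± 13.2 RPM, below the spleen Ets1 controls (330 ± 28.0) and above the spleen Grk2 controls (72.4 ± 12.6), with no overlap on either side. Gimap7, at 236 ± 15.8 in parenchyma, was likewise between the spleen groups, but without mitochondrially encoded genes its log2 difference from the spleen Ets1 controls shrank from -0.24 to -0.09. Those genes took between 25.4% and 27.4% of the reads in parenchyma controls and between 17.3% and 18.6% in the spleen Ets1 controls. Gimap6 was at 77.7 ± 12.4 in parenchyma and overlapped the spleen Ets1 controls. Gimap1 differed least, with 63.5 ± 6.78 in parenchyma, 57.7 ± 14.1 in the spleen Ets1 controls and 42.3 ± 6.53 in the spleen Grk2 controls. The median of all genes lay at -0.11 on the log2 scale for parenchyma against either spleen group, and the members' medians were 0.13 and 1.11.

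**Figure D3:**
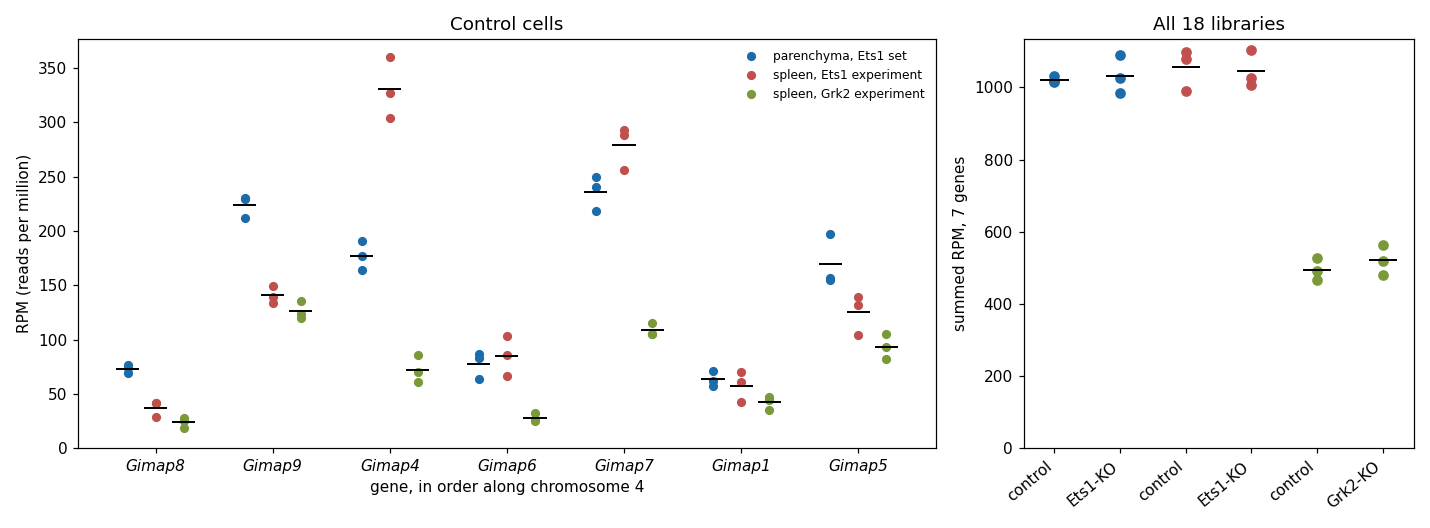
Left, RPM (reads per 1000000 reads on genes, linear axis from 0) of each GIMAP gene in the 3 control libraries of each set, with bars at the means; right, the sum over the 7 genes in all 18 libraries. Gimap5, Gimap8 and Gimap9 are highest in parenchyma, Gimap4 is highest in the spleen Ets1 controls, and the 6 libraries of the spleen Grk2 set lie between 467 and 562.

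Placed in order over all 6 groups, knockout and control of a set were neighbours for 6 of the 7 members. Gimap4 ran from spleen Ets1-KO (347 ± 54.3 RPM) and its control over the parenchyma groups (214 ± 29.6 in Ets1-KO cells) down to spleen Grk2-KO (85.5 ± 14.4) and its control, and each KO overlapped its own control. Gimap6 was the exception, since the parenchyma Ets1-KO group (50.6 ± 5.63) was separate both from the group above it, the spleen Ets1-KO cells (74.4 ± 4.69), and from the group below it, the spleen Grk2-KO cells (31.5 ± 5.35). Gimap8 in parenchyma was separate between control and Ets1-KO (61.6 ± 6.64) on this scale, whereas the normalized counts overlapped.

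The genes whose level over the 18 libraries was most like the mean profile of the members were AABR07061825.1, AABR07067506.1, AC109958.1, AC095947.3 and LOC100362999, with Pearson r between 0.977 and 0.984 on the log2 scale among 6647 other genes. The files annotate 4 of these 5 as pseudogenes. AABR07061825.1 had a mean of 264 RPM in parenchyma, 242 in the spleen Ets1 set and 27.0 in the spleen Grk2 set, so this likeness follows the split between the sets. With each set centred on its own mean the closest genes were Tbl1xr1, LOC108349244, Plekhf2, Asb8 and Rab14, with r between 0.697 and 0.720. The members' own r with their mean profile then ranged from 0.14 for Gimap5 to 0.83 for Gimap8, against 0.76 to 0.96 before centring. That profile includes the member itself, which raises these values. Between pairs of members the centred r ran from -0.44 (Gimap5 with Gimap6) to 0.40 (Gimap4 with Gimap8). Libraries of a set share their scaling, and these r values describe the 18 libraries without a test.

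Genes tied to the functions of GIMAP proteins were read beside them. Of 15 partners and survival genes 10 were tested in parenchyma, where 1 rose and 0 fell, beside 5.23% of all genes. The gene that rose was Bcl2l11, which encodes the pro-apoptotic protein BIM, from 146 ± 12.5 to 304 ± 27.0 normalized counts (log2 difference 1.05, SE 0.11, limma adjusted p = 2.48e-18). The GIMAP6 partner Gabarapl2 was not among the genes called. The call of Bcl2l11 was kept in 14 of 15 alternatives and lost with eBayes without a trend (adjusted p = 0.170), where 3 genes in all were called. In the spleen 0 of 10 passed in the Ets1 set, beside 2.22% of all genes, and 0 of 8 in the Grk2 set, beside 1.56%, with limma. Compared directly, the Ets1 effect differed between the tissues for 0 of 10, beside 2.10% of all genes. The rise of Bcl2l11 was therefore not shown to be particular to the parenchyma.

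Genes of quiescence and recirculation, the state in which resting T cells express GIMAP proteins, were read in the same way. Of 14 genes 8 were tested in parenchyma, 4 fell and 0 rose, beside 5.23% of all genes called in either direction, and the median log2 difference was -0.16. Lef1 and Tcf7, transcription factors of naive and memory T cells, fell from 26.9 ± 9.15 to 11.4 ± 4.40 and from 45.8 ± 5.56 to 26.9 ± 13.2 normalized counts (limma adjusted p = 0.00844 and 0.00937). The antiproliferative gene Btg1 fell from 217 ± 18.7 to 148 ± 4.62 (log2 difference -0.55, SE 0.12, limma adjusted p = 0.000212). Satb1, a chromatin organizer, fell by 0.36 on the log2 scale (limma adjusted p = 0.000398). These 4 calls were lost with eBayes without a trend and with DESeq2 with the replicate block, and those of Lef1, Tcf7 and Satb1 also without replicate 2. Over the alternatives the call of Tcf7 was kept in 6 of 14, of Lef1 in 8 of 14, of Satb1 in 11 of 15 and of Btg1 in 13 of 15. The list did not move as a whole. Btg2, Foxo1, Foxp1 and S1pr1 were not called, and their mean RPM was higher in the Ets1-KO cells of the parenchyma. Btg2 was at 158 in controls and 189 in KO cells, Foxo1 at 133 and 144, Foxp1 at 52.0 and 57.9, and S1pr1 at 52.1 and 53.9.

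In spleen 0 of 10 genes of quiescence and recirculation passed in the Ets1 set, beside 2.22% of all genes. Lef1 alone fell in the Grk2 set, beside 1.56% of all genes, from 42.0 ± 2.21 to 22.6 ± 4.59 (limma adjusted p = 0.0249). That call was kept in 6 of 14 alternatives, and it was lost without each replicate number and with eBayes without a trend, where 0 genes were called. Between the tissues the Ets1 effect differed for 1 of 8 genes of this list, beside 2.10% of all genes. This was Btg1 (log2 difference of effects -0.83, SE 0.17, limma adjusted p = 0.00353), a call lost without replicate 1 and with eBayes without a trend. The falls of Lef1, Tcf7 and Satb1 were not shown to be particular to the parenchyma.

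The interferon-inducible GTPases are a separate family that serves in defence within cells. Of 13 genes 8 were tested in each set. With limma 0 passed in parenchyma, beside 5.23% of all genes, and 0 in the spleen Ets1 set, beside 2.22%. In the spleen Grk2 set 2 of 8 fell, Gbp4 from 86.7 ± 24.04 to 53.8 ± 7.84 and Mx2 from 97.9 ± 36.9 to 61.5 ± 14.5 (limma adjusted p = 0.00946 and 0.0113), beside 1.56% of all genes. The call of Gbp4 was kept in 7 of 15 alternatives and that of Mx2 in 8 of 15, and both were lost without replicate 2, with DESeq2, without the replicate block and with eBayes without a trend. Between the knockouts in spleen the effect differed for 1 of 8 genes, beside 1.94% of all genes. This was Gbp4, with an Ets1 effect 0.85 above the Grk2 effect on the log2 scale (limma adjusted p = 0.0489). Its call was kept in 4 of 11 alternatives and lost without each replicate number. In control cells these GTPases summed to 1126 to 1191 RPM in the spleen Ets1 set and to 1208 to 1477 in the spleen Grk2 set. The family had no common direction, with Mx1 at 260 and 608 RPM and Gbp2 at 308 and 173 in this order. All spleen Ets1 controls lay above all spleen Grk2 controls for 2 of 8 genes, beside 31.7% of all genes. In parenchyma controls the sum was 824 to 888 RPM.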

How the data were processed

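The authors aligned single-end reads of a Collibri 3′ mRNA library to Rnor_6.0 with STAR 2.7.2b, without trimming, and counted them per gene with HTSeq 1.0.0. The deposited signal values (normalized counts) are reads divided by a DESeq2 size factor, in 3 separately scaled tables. All positive values were multiples of 1 step (tolerance 0.01), which gave whole reads. Tables of the authors' own comparisons hold fold changes and p-values and were not used, other than for the name of Gimap1; 8 columns of human values were not used here.

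KO was compared with control in limma 3.58.1 (R 4.3.3; trend) on log2(normalized count + 1), for genes with a mean of at least 10, with the replicate number as a block, as the study corrected per animal, and Benjamini-Hochberg adjustment over all genes (threshold 0.05). Differences of effects were fitted on the log2 ratios of the pairs. edgeR 4.0.16 and DESeq2 1.42.0 were run on the recovered reads. Scripts were tested on simulated data. The labels do not say that same-numbered libraries share an animal. Their deviations correlated at -0.003 to 0.16 in parenchyma, 0.08 to 0.18 in the spleen Ets1 set and 0.01 to 0.14 in the spleen Grk2 set. The study calls its replicates biological, but the labels do not tie library numbers to animals.

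Members, gene lists and tests were chosen with earlier results of these data known. Named genes were all members, Ets1 and Grk2, neighbours within 200 kb with a mean of at least 10, up to 4 called genes per list and comparison, and the 5 genes most like the members. Reads are not independent molecules.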

Additional observations from a re-analysis of the deposited data

How the results depend on the processing

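The number of members called in parenchyma went from 1 to 0 with eBayes without a trend, without replicate 2, without replicate 3, and with DESeq2 with or without the replicate block, and was 1 in the other 10 alternatives; leaving out 1 replicate number gave 0 to 1. The adjusted p of Gimap6 ranged from 0.000579 to 0.607 over the 15. The other counts of members called stayed at 0. The fits of DESeq2 and edgeR without the block, and every alternative for genes that are not members, were chosen after seeing the data. Without the replicate block Gimap6 stayed called (adjusted p = 0.0258) and the block changed no member's call; all genes called went from 366 to 200 in parenchyma, 155 to 71 in the spleen Ets1 set and 109 to 19 in the spleen Grk2 set. In the same order of sets, eBayes without a trend called 3, 0 and 0 genes and DESeq2 with the block 81, 39 and 10, while the spleen Ets1 set without replicate 1 had 3 and the spleen Grk2 set without replicate 2 had 6. Not every pair of same-numbered libraries correlated above 0.1. In the spleen Ets1 set each control library correlated best with the KO library of its own number. In parenchyma control replicate 3 correlated best with KO replicate 1, and in the spleen Grk2 set control replicate 2 with KO replicate 3.

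Values near 0 changed sign. Gimap7 in parenchyma (-0.01) was 0.0087 with upper quartile scaling, 0.012 with edgeR in both fits, and 0.015 and 0.014 with DESeq2 with and without the block. Leaving out each replicate number in turn, the log2 differences in parenchyma ran from -0.18 to 0.14 for Gimap1, -0.097 to 0.045 for Gimap7 and -0.044 to 0.050 for Gimap9. In the spleen Ets1 set they ran from -0.34 to 0.088 for Gimap1, -0.34 to 0.26 for Gimap8 and -0.00041 to 0.13 for Gimap4. In the spleen Grk2 set they ran from -0.16 to 0.20 for Gimap1, -0.0050 to 0.17 for Gimap5, -0.022 to 0.25 for Gimap6, -0.105 to 0.049 for Gimap7 and -0.085 to 0.048 for Gimap9. The difference of the Ets1 effect between tissues ran from -0.026 to 0.16 for Gimap1 and -0.49 to 0.15 for Gimap8, and that between the knockouts from -0.23 to 0.16 for Gimap1 and -0.64 to 0.0098 for Gimap6. The cause of these changes was not tested. A minimum of 50 left out Gimap8 in both spleen sets and Gimap6 in the spleen Grk2 set. Gimap5, Gimap8 and Gimap9 were the members higher in parenchyma under each of the 6 alternatives for levels, and 13 of 126 log2 differences of control levels moved by more than 1 SD.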
